A study of Homo sapiens with 12 samples.

Results

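The 7 genes described here encode factors that cells make when the integrated stress response is switched on. They are *GDF15*, *INHBE*, *ADM2*, *STC2*, *STC1* and *FGF21*, whose products are secreted, and *VLDLR*, a lipoprotein receptor that stays on the cell surface and so is not secreted by its main known role. They were found by symbol among the 43236 genes of the count files, and 6 of the 7 had enough reads to be tested with the 15979 genes that passed the filter on low counts. *FGF21* did not pass and is described by its raw counts. The cells were MNNG/HOS (HOS-MNNG in the labels), a single human osteosarcoma line derived from HOS by chemical transformation. RNA-seq compared cells given 0.3 µM NXP800, a small molecule found as an inhibitor of the HSF1 pathway, with cells given DMSO, its solvent, for 6 h or 24 h. Each of the 4 conditions (DMSO 6 h, NXP800 6 h, DMSO 24 h, NXP800 24 h) had 3 libraries.

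In the integrated stress response, kinases that sense amino acid shortage, unfolded proteins, viral RNA or heme shortage phosphorylate the translation factor eIF2α. General protein synthesis then slows while ATF4, a transcription factor, is made more efficiently and turns on its target genes together with C/EBP partners. Some of those targets are hormones and growth factors, through which a stressed cell can act on appetite, lipid use, vessels and growth factor signals elsewhere in the body.

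ATF4 and its partners are known to bind a composite of a C/EBP site and an ATF site, so the bases just before the transcription start were read for it. Promoters of RefSeq genes on GRCh38.p14 were found for 5 of the 7 genes, *GDF15*, *STC2*, *FGF21*, *ADM2* and *VLDLR*, and had no entry for *INHBE* and *STC1*. The following 3 stretches, given 5′ to 3′ on the gene's strand, show a promoter with the composite, a promoter with a CCAAT box only and a promoter with neither. Capitals mark the match, and a match is a description of letters and not a site of binding. The stretches of *FGF21* and *ADM2* have 120 bases and end 1 base before the start. That of *STC2* has 87 bases and ends 34 bases before it, since a GENCODE exon of *STC2* covers the bases left out.
FGF21, chr19:48755404-48755523, plus strand: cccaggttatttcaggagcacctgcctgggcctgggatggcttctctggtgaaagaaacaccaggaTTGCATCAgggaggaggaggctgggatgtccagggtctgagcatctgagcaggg
STC2, chr5:173328448-173328534, minus strand: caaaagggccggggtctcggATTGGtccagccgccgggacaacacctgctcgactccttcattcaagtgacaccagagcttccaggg
ADM2, chr22:50481423-50481542, plus strand: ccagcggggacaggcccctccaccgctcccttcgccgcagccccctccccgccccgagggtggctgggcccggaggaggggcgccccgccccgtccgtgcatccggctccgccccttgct

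The composite searched was TGATGNAA on either strand within 250 bases before the start, and 3.14% of the 35116 promoters in the table held it. Among the 5 members it was found only in *FGF21*, on the reverse strand at 54 to 47 bases before the start. CCAAT, on either strand, was held by 32% of all promoters and by those of *GDF15* and *STC2*, at 103 to 99 and 100 to 96 bases before their starts. TATAAA, on either strand, was held by 10.7% of all promoters and by *GDF15* alone among the 5, at 29 to 24 bases before its start. None of the 3 motifs was in the window of *ADM2* or *VLDLR*. The windows also differed in composition, with a GC content of 78.8% in *ADM2* and *VLDLR*, 63.6% in *STC2*, 60% in *FGF21* and 58.4% in *GDF15*, against a median of 58% over all promoters. CpG pairs numbered 41 in *VLDLR*, 29 in *ADM2*, 22 in *STC2*, 9 in *GDF15* and 0 in *FGF21*, where the median promoter had 11.

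Each library held 30810614 to 31947656 counts on genes. Of the markers of the line's origin, *VIM*, *SPARC*, *COL1A1* and *RUNX2* were counted in every library at 683 counts or more, whereas *COL1A2* had 1 to 29 counts summed over the libraries of a condition. Defining genes of leukocytes (*PTPRC*) and hepatocytes (*ALB*) were at 0 to 6 and 2 to 8 counts per condition, *APOA1* at 13 to 34, the endothelial *PECAM1* at 27 to 67 and the epithelial *EPCAM* at 513 to 948. The markers themselves moved with NXP800. *SPARC* was lower at 6 h and 24 h (log2 fold change -0.79 and -2.02), as was *COL1A1* (-0.50 and -0.76), while *VIM* was lower at 24 h (-0.48) and *RUNX2* higher at both times (0.71 and 0.36). *EPCAM* was higher at 24 h (0.81, edgeR quasi-likelihood adjusted p = 4.85e-06) and *PECAM1* lower at 6 h (-1.17, adjusted p = 0.0157). The part of these changes in the values below was not tested. The study's methods describe its results in general as means over independent experiments, and the labels do not say which culture each library came from. The p-values measure the spread between these libraries. In such bulk data a change in every cell and a larger change in some cells cannot be told apart.

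At 6 h all 6 tested genes were higher with NXP800, and at 24 h *GDF15*, *INHBE*, *ADM2*, *STC2* and *VLDLR* were higher while *STC1* was lower. Levels are given in CPM, counts-per-million of the library size after TMM scaling. A gene was called where its p from edgeR's quasi-likelihood test, adjusted by Benjamini-Hochberg over all 15979 tested genes, was below 0.05. Of those genes, 25.0% were called higher and 27.8% lower at 6 h, and 27.5% higher and 28.6% lower at 24 h. Every NXP800 library lay above every DMSO library in 6 of 6 tested genes at 6 h, as in 29.3% of all tested genes, and in 5 of 6 at 24 h, as in 29.0% of all. None of the 6 had all NXP800 libraries below all DMSO libraries at 6 h, where 32.7% of all tested genes did. The median log2 fold change of the 6 was 2.62 at 6 h and 2.46 at 24 h, against -0.046 and -0.0033 over all tested genes. *INHBE* passed the filter only through its NXP800 libraries and so had to differ. The members were also chosen with earlier results of these data known. The counts and medians given here are therefore a description and not an independent contrast with all genes.

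**Figure D1:**
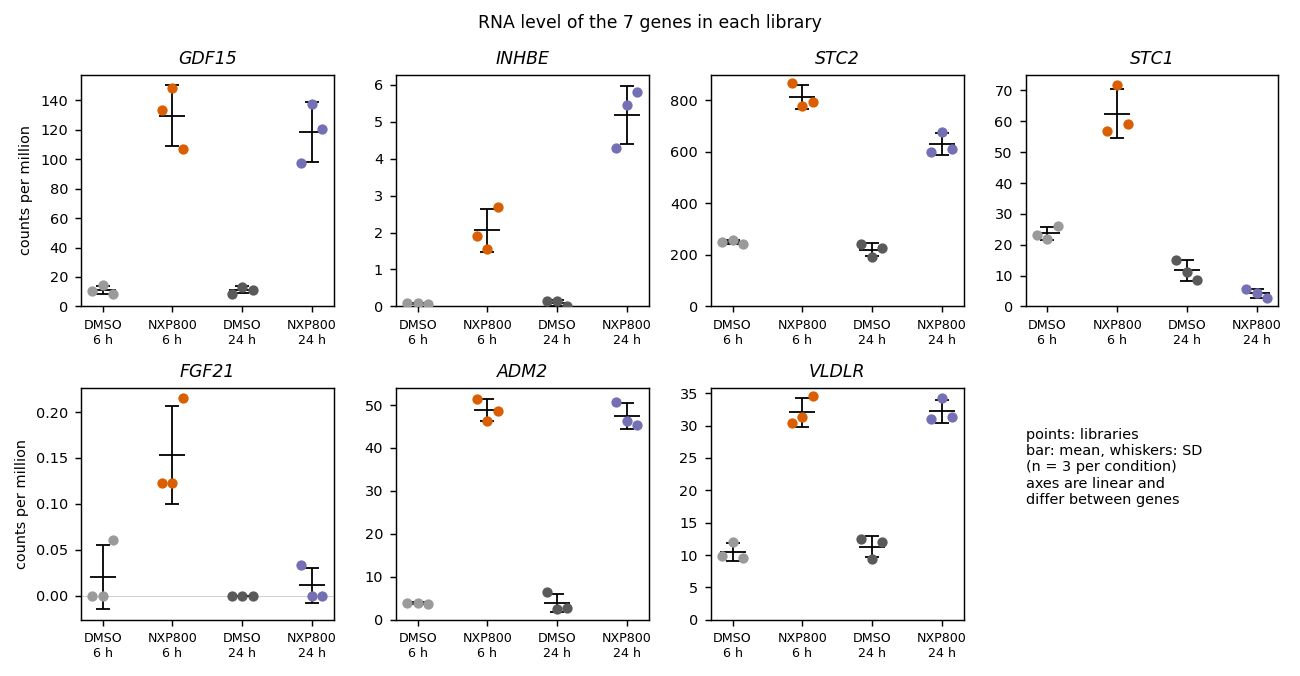
RNA level of each gene in each library (vertical axis, CPM on a linear scale that differs between genes) in the 4 conditions, with a bar at the mean and whiskers of 1 SD (n = 3). NXP800 points lie above DMSO points at both times in *GDF15*, *INHBE*, *STC2*, *ADM2* and *VLDLR*, whereas the *STC1* points are highest in NXP800 6 h and lowest in NXP800 24 h, and *FGF21* stays at or under 0.215 CPM.

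*GDF15* (chr19:18386158-18389176, plus strand) encodes a distant member of the TGF-β family that reduces appetite through a receptor in the hindbrain and is a widely used marker of cell stress. It measured 10.6, 14.3 and 8.69 CPM in the DMSO 6 h libraries and 134, 148 and 107 CPM in the NXP800 6 h libraries. The 24 h libraries held 8.70, 13.4 and 11.4 CPM with DMSO and 97.3, 138 and 121 CPM with NXP800. The lowest NXP800 library was thus several times the highest DMSO library at both times. The mean rose from 11.2 ± 2.88 to 129.5 ± 20.9 CPM at 6 h and from 11.2 ± 2.35 to 119 ± 20.2 CPM at 24 h (SD, n = 3). The rise was 11.6-fold at 6 h (log2 fold change 3.53, SE 0.18, edgeR quasi-likelihood adjusted p = 4.77e-10), the 31st largest of the 15979. At 24 h it was 10.6-fold (log2 fold change 3.41, SE 0.18, edgeR quasi-likelihood adjusted p = 4.46e-10), the 57th largest. Between libraries of the same number the 6 h fold ranged from 10.3 to 12.7 and the 24 h fold from 10.3 to 11.2.

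*INHBE* (chr12:57455307-57458025, plus strand) encodes the βE subunit of activin E, a TGF-β family hormone made mainly by liver that restrains fat breakdown. Its raw counts were 3, 3 and 2 in DMSO 6 h and 62, 51 and 88 in NXP800 6 h. They were 4, 4 and 0 in DMSO 24 h and 130, 174 and 182 in NXP800 24 h. No DMSO library reached 5 counts and no NXP800 library fell under 51. From summed counts, the ratio of NXP800 to DMSO was 24.7 at 6 h (8 and 201 counts, exact 95% counting interval 12.3 to 58.0) and 57.7 at 24 h (8 and 486 counts, 29.0 to 134). These intervals cover counting error only. It was called at both times (edgeR quasi-likelihood adjusted p = 2.16e-07 and 3.76e-09). Its level with NXP800 was 2.06 ± 0.586 CPM at 6 h and 5.19 ± 0.793 CPM at 24 h (SD, n = 3). Those groups did not overlap, and that gap in level was not tested. The responses were not called different between the times (24 h minus 6 h, log2 1.22, 95% interval -0.58 to 3.03, edgeR quasi-likelihood adjusted p = 0.321). In GENCODE, 16.4% of its exon length overlaps a long noncoding gene on the other strand, and the strand setting of the counting is not given in the sources used here, so reads of the pair cannot be told apart.

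*ADM2* (chr22:50481543-50486437, plus strand) encodes adrenomedullin 2, also called intermedin, a peptide that widens blood vessels through calcitonin-like receptors. It measured 3.96, 3.94 and 3.58 CPM in DMSO 6 h and 51.5, 46.2 and 48.7 CPM in NXP800 6 h. At 24 h it measured 6.42, 2.56 and 2.78 CPM with DMSO and 50.8, 46.3 and 45.2 CPM with NXP800. The NXP800 libraries lay close together, and the DMSO 24 h libraries were uneven, with 192 counts in replicate 1 against 76 and 81 in the others. The mean rose from 3.83 ± 0.211 to 48.8 ± 2.65 CPM at 6 h, a 12.7-fold rise (log2 fold change 3.67, SE 0.21, edgeR quasi-likelihood adjusted p = 9.78e-10). At 24 h it rose from 3.92 ± 2.17 to 47.5 ± 2.93 CPM, a 12.1-fold rise (log2 fold change 3.59, SE 0.21, edgeR quasi-likelihood adjusted p = 9.02e-10). The responses differed by -0.078 on the log2 scale (95% interval -0.70 to 0.54, edgeR quasi-likelihood adjusted p = 0.880). Without DMSO 24 h replicate 1 the 24 h response was 4.15 and the difference 0.48, which was then called (edgeR quasi-likelihood adjusted p = 0.0283), so whether the response of *ADM2* grew with time rested on that library.

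*STC2* (chr5:173314723-173328414, minus strand) encodes stanniocalcin 2, a secreted glycoprotein that binds and inhibits the protease PAPP-A and so limits release of insulin-like growth factors from their binding proteins. Per exon length it had the highest level of the 7 genes in every condition. It measured 249.8, 257 and 241 CPM in DMSO 6 h and 867, 779 and 794 CPM in NXP800 6 h, with groups far apart. At 24 h the values were 241, 193 and 228 CPM with DMSO and 599, 679 and 611 CPM with NXP800. The rise was 3.26-fold at 6 h (log2 fold change 1.71, SE 0.083, edgeR quasi-likelihood adjusted p = 2.25e-10) and 2.85-fold at 24 h (log2 fold change 1.51, SE 0.083, edgeR quasi-likelihood adjusted p = 4.83e-10). All NXP800 24 h libraries lay below all NXP800 6 h libraries, a gap in level between the times that was not tested. The responses were not called different (24 h minus 6 h, log2 -0.19, 95% interval -0.44 to 0.048, edgeR quasi-likelihood adjusted p = 0.233).

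*STC1*, on the minus strand of chromosome 8, encodes stanniocalcin 1, the paralog of *STC2*, which also inhibits PAPP-A and is known for calcium and phosphate handling. It was the only tested member whose direction differed between 6 h and 24 h. It measured 23.3, 21.9 and 26.0 CPM in DMSO 6 h and 56.7, 71.7 and 59.1 CPM in NXP800 6 h, a 2.63-fold rise (log2 fold change 1.40, SE 0.18, edgeR quasi-likelihood adjusted p = 6.93e-06). At 24 h it measured 15.1, 11.2 and 8.65 CPM with DMSO and 5.71, 4.26 and 2.68 CPM with NXP800 (raw counts 452, 332 and 252 against 173, 136 and 84). These groups did not overlap either, with all NXP800 libraries below all DMSO libraries, as in 30.1% of all tested genes at 24 h. The mean fell from 11.6 ± 3.26 to 4.22 ± 1.52 CPM (SD, n = 3), a level 2.77-fold lower (log2 fold change -1.47, SE 0.22, edgeR quasi-likelihood adjusted p = 2.81e-05). Pairs of libraries with a shared replicate number gave NXP800 to DMSO ratios of 0.378, 0.382 and 0.310.

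The responses of *STC1* differed between the times by -2.87 on the log2 scale (24 h minus 6 h, SE 0.28, 95% interval -3.46 to -2.27, edgeR quasi-likelihood adjusted p = 3.75e-06), the 47th most negative difference of the 15979. It was the only gene of the 6 called in that comparison, in which 25.8% of all tested genes were called and 13.8% were called with a lower response at 24 h. Genes called higher at 6 h and lower at 24 h were 175, or 1.10% of those tested. Only 7 of them (0.0438%) moved more than 2-fold each way, and *STC1* was among these 7 with *ITGAM*, *TCP11*, *TNFSF18*, *EFHD2-AS1* and a pair of uncharacterised loci, all named after their values were seen. Its level with DMSO was also lower at 24 h (11.6 ± 3.26 CPM) than at 6 h (23.7 ± 2.08 CPM) without overlap of the groups, and that difference between the times was not tested.

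**Figure D2:**
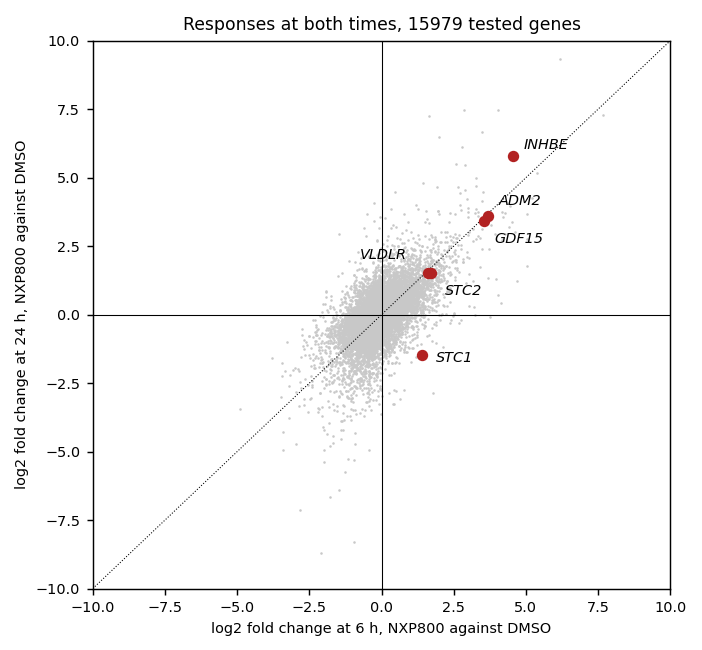
Log2 fold change of NXP800 against DMSO at 6 h (horizontal) and 24 h (vertical) for the 15979 tested genes (grey) with the 6 tested members in red, the dotted line marking equal responses. *STC1* lies at 1.40 and -1.47, in the quadrant of genes higher at 6 h and lower at 24 h, and the other 5 lie near the line or, for *INHBE*, above it.

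*FGF21* (chr19:48755524-48758330, plus strand) encodes a hormone of liver, fat and muscle that acts on receptors with the coreceptor β-Klotho and is known to rise in serum in mitochondrial disease. Its raw counts were 0, 0 and 2 in DMSO 6 h and 4, 4 and 7 in NXP800 6 h. At 24 h the counts were 0 in all DMSO libraries and 1, 0 and 0 with NXP800. The 6 h groups did not overlap, at counts so low that the ratio of NXP800 to DMSO was 7.38 with an exact 95% counting interval of 1.72 to 66.5 (2 and 15 counts). A two-sided exact permutation test of CPM at 6 h gave p = 0.1, the smallest that 3 against 3 libraries allow, and p = 1 at 24 h. Without the filter on low counts, edgeR's quasi-likelihood test gave a log2 fold change of 2.67 at 6 h (adjusted p = 0.0300), and 1.89 with an adjusted p of 0.541 at 24 h. That fit also gave smaller SEs for the tested members at 6 h, as for *STC1* (0.18 to 0.095), so its p-values are less strict. DESeq2's Wald test gave *FGF21* a log2 fold change of 2.92 at 6 h with no adjusted p. A rise of *FGF21* at 6 h is thus not settled by these counts. With 0 of 95161483 counts in DMSO 24 h, a level of up to 0.0315 CPM is allowed there, so no fold was computed at 24 h. *FGF21* was the least abundant of the 7 in these cells, and the part of the composite in its promoter window was not tested.

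*VLDLR* (chr9:2621787-2660056, plus strand) encodes the very low density lipoprotein receptor, which takes up triglyceride-rich particles and is also a receptor for reelin. It measured 9.79, 12.1 and 9.48 CPM in DMSO 6 h and 30.3, 31.3 and 34.6 CPM in NXP800 6 h, a 3.07-fold rise (log2 fold change 1.62, SE 0.11, edgeR quasi-likelihood adjusted p = 9.31e-09). The 24 h values were 12.4, 9.38 and 12.02 CPM with DMSO and 31.1, 34.3 and 31.3 CPM with NXP800, a 2.86-fold rise (log2 fold change 1.52, SE 0.11, edgeR quasi-likelihood adjusted p = 1.21e-08). The groups were apart at both times, and the means with NXP800 were 32.1 ± 2.22 and 32.2 ± 1.78 CPM (SD, n = 3). In GENCODE, 6.66% and 1.58% of its exon length overlap a pair of noncoding genes on the other strand, *VLDLR-AS1* among them, and 3.05% of that of *ADM2* overlaps *SBF1*, whose reads cannot be told apart here for the reason given for *INHBE*.

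By size the responses fell into a higher and a lower set. *INHBE*, *ADM2* and *GDF15* rose over 10-fold at both times, and *STC2* and *VLDLR* rose between 2.85-fold and 3.26-fold. Between 6 h and 24 h the response of *GDF15* changed by -0.12 on the log2 scale (95% interval -0.65 to 0.41, edgeR quasi-likelihood adjusted p = 0.763) and that of *VLDLR* by -0.10 (-0.44 to 0.23, adjusted p = 0.675). For *STC2* and *VLDLR* the interval of the change stayed between -0.44 and 0.23, whereas those of *GDF15*, *ADM2* and *INHBE* were wider. In all, 5 of the 6 were called higher at both times, as were 16.5% of all tested genes. *INHBE*, which had to differ by the filter, is among the 5, so the count is a description.

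**Figure D3:**
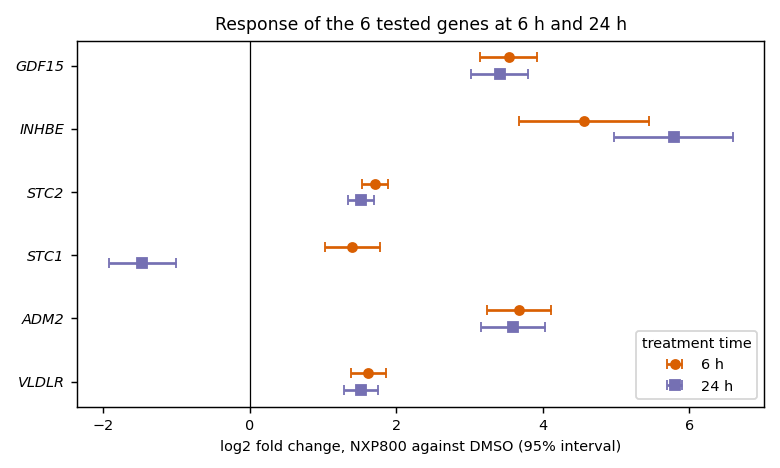
Log2 fold change of NXP800 against DMSO (horizontal) with its 95% interval for the 6 tested genes at 6 h (circles) and 24 h (squares). The intervals of *GDF15*, *STC2*, *ADM2* and *VLDLR* overlap between the times, *INHBE* rests on 8 DMSO counts at each time, and *STC1* lies on opposite sides of 0. The intervals come from the SE of the model. For *INHBE* they are narrower than its exact counting intervals and so too narrow.

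Levels were compared between genes as CPM per kilobase of merged exon length in GENCODE. *STC2* was highest in every condition, at 49.2 and 43.6 CPM per kb with DMSO and 160.7 and 124 with NXP800 at 6 h and 24 h. *GDF15* was next with NXP800, at 62.1 and 56.8 CPM per kb, after a level of 5.36 and 5.35 with DMSO. *STC1*, at 5.74 CPM per kb, did not differ from *GDF15* beyond the spread in DMSO 6 h, where the order turned when the longest transcript was used for the length. It then reached 15.1 with NXP800 at 6 h and fell from 2.82 to 1.02 at 24 h, to a level below *INHBE* (1.70). *ADM2* moved from 0.893 and 0.914 CPM per kb with DMSO to 11.4 and 11.1 with NXP800. *VLDLR* was near *ADM2* with DMSO (0.633 and 0.683) and well under it with NXP800 (1.94 and 1.95), and their order with DMSO also turned with the longest transcript. *FGF21* was lowest throughout, at 0.114 CPM per kb or less.

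A list of 34 receptors, relatives and binding partners was read to see whether the ligands' known counterparts moved too. Of these, 23 were tested, and 8 were called higher and 11 lower at 6 h and 6 higher and 10 lower at 24 h, with medians of -0.39 and -0.28 on the log2 scale. The shares of all tested genes were 25.0% higher and 27.8% lower at 6 h, and 27.5% higher and 28.6% lower at 24 h. They are the background for each family counted below, and no family was tested as a set. The higher calls at both times include *PAPPA2*, which passed the filter only through NXP800 libraries. The GDF15 receptor *GFRAL* had 0 counts in all libraries, and its signalling partner *RET* was lower at 6 h (log2 fold change -0.86, edgeR quasi-likelihood adjusted p = 0.00792) and at 24 h (-0.99, adjusted p = 0.00252).

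Among 10 genes of activin and inhibin subunits, their receptors and antagonists, 7 were tested. Of these, 4 were higher and 1 lower at 6 h against 3 higher and 1 lower at 24 h. *INHBA*, the subunit of activin A, had 451, 508 and 440 counts in DMSO 6 h and 1669, 2190 and 1401 in NXP800 6 h (log2 fold change 1.88, edgeR quasi-likelihood adjusted p = 7.22e-08). At 24 h it had 277, 280 and 392 counts with DMSO and 231, 311 and 284 with NXP800 (-0.28, edgeR quasi-likelihood adjusted p = 0.177). Its NXP800 libraries stood apart at 6 h only, and the difference of its responses was called (-2.16, edgeR quasi-likelihood adjusted p = 7.30e-06). *FST*, whose product follistatin binds and blocks activins, had a like course. It rose 6.48-fold at 6 h and was not called at 24 h (log2 fold change -0.32, edgeR quasi-likelihood adjusted p = 7.20e-07 and 0.440), and the difference of its responses was called (-3.01, edgeR quasi-likelihood adjusted p = 0.000116). *FSTL3*, another activin antagonist, was higher at both times (0.78 and 1.10), as was the receptor *ACVR2B* (0.80 and 0.75), and *INHBB* was lower (-0.78 and -0.39, edgeR quasi-likelihood adjusted p = 0.000743 and 0.0391), where the 24 h call was lost with scaling by library size only. *INHBE* was called higher at both times, but it passed the filter only through its NXP800 libraries and so had to differ. Its course was not tested against those of *INHBA* and *FST*.

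Of the proteases that stanniocalcins inhibit, *PAPPA*, encoding PAPP-A, was higher at both times. It had 34, 37 and 34 counts in DMSO 6 h and 185, 184 and 173 in NXP800 6 h, a 5.06-fold rise, and rose 4.37-fold at 24 h (edgeR quasi-likelihood adjusted p = 4.28e-08 and 3.65e-07). *PAPPA2* had 5, 4 and 5 counts in DMSO 6 h, 17, 17 and 24 in NXP800 6 h, 3, 2 and 0 in DMSO 24 h and 175, 171 and 157 in NXP800 24 h. It was nearly unread with DMSO and, like *INHBE*, passed the filter only through its NXP800 libraries and so had to differ, which makes its calls a description.

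For *FGF21*, the coreceptor gene *KLB* had 0 or 1 count in each library. Of 8 genes of other endocrine FGFs, FGF receptors and coreceptors, 5 were tested, and the FGF genes *FGF19* and *FGF23* were not among them. The receptor genes *FGFR1*, *FGFR2* and *FGFR3* were lower at 6 h and *FGFR1*, *FGFR2* and *FGFR4* at 24 h. *KL*, the coreceptor for FGF23, was higher at 6 h (0.84, edgeR quasi-likelihood adjusted p = 0.00319). For *ADM2*, the receptor gene *CALCRL* had at most 2 counts in a library. Its relative *ADM*, encoding adrenomedullin, was lower at 6 h and 24 h (-0.44 and -0.59, edgeR quasi-likelihood adjusted p = 0.00283 and 0.000206), opposite to *ADM2*. *RAMP1*, whose product sets the ligand preference of that receptor, was lower at 6 h (-0.63) and lower still at 24 h (-1.66, edgeR quasi-likelihood adjusted p of the difference 0.00131).

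Of 5 tested relatives and partners of *VLDLR*, 4 were lower and 1 higher at 6 h, and 3 lower and 1 higher at 24 h. *LRP8*, the other reelin receptor, fell by 0.97 at 6 h and by 0.71 at 24 h on the log2 scale (edgeR quasi-likelihood adjusted p = 2.23e-06 and 3.64e-05), opposite to *VLDLR*. *RELN*, encoding the ligand reelin, had 18, 22 and 42 counts in DMSO 6 h and 56, 56 and 68 in NXP800 6 h, and 40, 34 and 35 in DMSO 24 h and 204, 219 and 185 in NXP800 24 h. Its rise was 2.16-fold at 6 h and 5.28-fold at 24 h, and the responses differed (edgeR quasi-likelihood adjusted p = 0.00818). *LRPAP1*, a chaperone of these receptors, was lower at both times (-0.49 and -0.58).

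**Figure D4:**
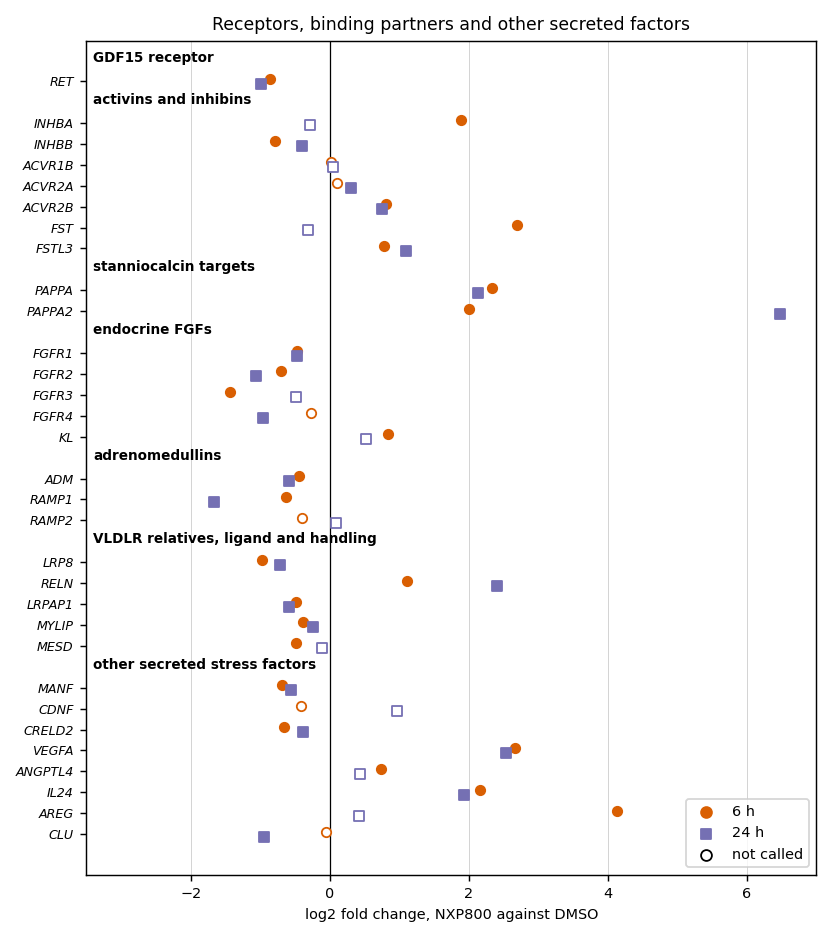
Log2 fold change of NXP800 against DMSO (horizontal) at 6 h (circles) and 24 h (squares) for the tested receptors, relatives and binding partners and for other secreted factors, with open symbols for genes not called. *PAPPA*, *PAPPA2*, *VEGFA* and *IL24* lie at or above 1.93 at both times, *INHBA*, *FST* and *AREG* are called at 6 h only, and *LRP8*, *ADM*, *RAMP1* and *RET* lie below 0 at both times.

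Of 11 transcription factors known to act on genes of this kind, 9 were higher and 1 lower at 6 h and 7 were higher and 1 lower at 24 h. Among all tested genes, 25.0% were higher and 27.8% lower at 6 h, and 27.5% and 28.6% at 24 h. The list was chosen with earlier results known and was not tested as a set. *ATF4* rose by 0.66 and 0.51 on the log2 scale, *DDIT3*, the gene of the pro-apoptotic factor CHOP, by 3.05 and 3.01, *CEBPB* by 2.51 and 2.28, and *CEBPG* by 1.92 and 1.53. *ATF3* rose by 3.71 at 6 h and by 2.41 at 24 h, a difference that was called (edgeR quasi-likelihood adjusted p = 0.0208). *PPARA*, a lipid-sensing receptor that drives *FGF21* in fasting liver, was called at 24 h only (0.59, edgeR quasi-likelihood adjusted p = 0.00109) and *PPARG* was lower at both times (-0.35 and -0.77). *NFE2L2*, the main factor of the oxidative stress response, rose by 0.93 and 0.59. *EGR1*, an immediate early gene, was called at 6 h only (1.51, edgeR quasi-likelihood adjusted p = 0.0213), where its libraries overlapped, with 1838, 608 and 900 counts with DMSO and 6725, 1275 and 1698 with NXP800.

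Of 8 other secreted stress factors, 4 were higher and 2 lower at 6 h and 2 higher and 3 lower at 24 h. Beside these stand 25.0% higher and 27.8% lower of all tested genes at 6 h, and 27.5% and 28.6% at 24 h. *VEGFA*, the vessel growth factor, rose by 2.66 and 2.53 on the log2 scale and the cytokine gene *IL24* by 2.15 and 1.93. *AREG*, encoding the EGF receptor ligand amphiregulin, had 15, 9 and 25 counts in DMSO 6 h and 323, 314 and 243 in NXP800 6 h, a 17.6-fold rise, and was not called at 24 h (0.43, edgeR quasi-likelihood adjusted p = 0.454). *MANF* (-0.69 and -0.55) and *CRELD2* (-0.66 and -0.38), secreted products of the endoplasmic reticulum stress response, were lower at both times. Both were thus lower in the libraries in which *GDF15*, *ADM2* and *STC2* were higher. *CLU*, encoding the secreted chaperone clusterin, was not called at 6 h (-0.055) and was lower at 24 h (-0.95), and the difference of its responses was called (-0.90, edgeR quasi-likelihood adjusted p = 0.00495).

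Over the 12 libraries the log2 levels of *GDF15*, *INHBE*, *STC2*, *ADM2* and *VLDLR* correlated pairwise with r between 0.909 and 0.984 in 10 pairs, and those of *STC1* with the other 5 with r between -0.193 and 0.155. These points are 4 conditions with 3 libraries each, so r describes the shared course over conditions. The genes most like each member by r over the 12 libraries were *ULBP1* (0.993), *YPEL5* and *XBP1* for *GDF15*, *S100A16* (0.986), *SNHG32* and *TXNIP* for *INHBE*, and *KDM7A* (0.998), *DDIT3* and *MIA2* for *STC2*. For *ADM2* they were *SLFN5* (0.994), *CHAC1* and *SARS1*, and for *VLDLR* *GJB2* (0.996), *ULBP1* and *FYN*. For *STC1* they were *SNX5* (0.994), *KCTD9* and *EMP1*. These were called higher at 6 h (0.48, 0.41 and 0.27 on the log2 scale) and lower at 24 h (-0.39, -0.32 and -0.31), by far less than *STC1*. Their like direction follows from their choice by r in the same libraries.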

How the data were processed

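The 12 libraries were prepared from MNNG/HOS mRNA by a kit that keeps strand, and read from both ends. Per the labels and the study's methods, the authors trimmed reads with fastp 0.20.1, aligned them with STAR 2.7.5a to hg38 and used HTSeq 0.12.4 to count reads per RefSeq gene. The deposited files give raw counts with no normalization. The strand setting and counting mode are not given in the sources used here. Entries that name no gene (8.02 to 12.2% of a library) were left out. Reads outside annotated genes made up 6.66 to 8.14% of a 6 h library and 2.73 to 3.67% of a 24 h library. Comparisons within a time point do not cross that gap. Levels set side by side between 6 h and 24 h do cross it. The gap goes along with the time point in every library. Its part in those levels and in the difference of the responses was not tested and cannot be told apart from that of time.

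Analysis used R 4.3.3, edgeR 4.0.16, limma 3.58.1 and DESeq2 1.42.0. After filterByExpr and TMM scaling, edgeR's quasi-likelihood test used 1 model of the 4 conditions (common dispersion 0.00723) with contrasts at 6 h, at 24 h and for the difference of the responses, Benjamini-Hochberg adjusted over all tested genes. The study used DESeq2, whose design is not stated. The SE is the log2 fold change over the root of F. Ratios of low members come from counts summed over libraries with an exact conditional binomial interval, and the limit at 0 is 3 counts over the group. Log2 levels for correlations used a prior count of 2. Within a condition no library was a duplicate of another, since replicates differed beyond sampling noise (chi-square 7.95 to 28.6 per degree of freedom). Libraries of different conditions were not compared in this way. The replicate numbers of the labels pair the libraries: after removal of group means, same-numbered NXP800 and DMSO libraries of a time point had correlations across genes of r = 0.159 to 0.329, against at most 0.0580 for different numbers. The main model left this pairing out, so the p-values, intervals and shares of all genes given above do not use it. The replicate block, an alternative, does. The members and lists were chosen with earlier results of these data known. Named were all members, list genes picked after their values were seen, among them those called with the largest changes, and for each tested member the 3 most correlated genes whose mean log2 CPM reached 1. A further 2 list genes were left out of all list counts and are not reported here. Exon lengths and overlaps are from GENCODE, gene positions and promoters from RefSeq on GRCh38.p14. Alternatives were DESeq2, its size factors, library size only, no filter, a minimum of 10 counts in every library, a fit of 1 time point alone, the replicate block, an adjusted p below 0.01, the longest transcript, and each library left out in turn. The model was also run on simulated counts in which a small set of genes changed at 6 h only and libraries were not paired. These data differ on both points, so that run does not show how the model performs on them.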

Additional observations from a re-analysis of the deposited data

Results flagged for a closer look

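*STC1* responded in opposite directions at the 2 time points. Its 24 h response was lower than its 6 h response, with a difference of -2.87 on the log2 scale, and this difference was itself tested by the interaction term of the model (edgeR quasi-likelihood adjusted p = 3.75e-06). The 3 NXP800 libraries lay above the DMSO libraries at 6 h and below them at 24 h. With each of the 12 libraries left out in turn the difference lay between -3.14 and -2.62.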

How the results depend on the processing

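Of 452 recomputed values of the comparisons, 444 were rated the same. A fold change was rated the same if it kept its direction and its side of the threshold. A count of called genes was rated the same if its ratio to the main count stayed within a fixed limit. Such counts did move, as from 4566 to 3747 genes lower at 24 h with library size only. Members called higher at 6 h were 7 without the filter, which let in *FGF21*. The calls of the 6 tested members at 6 h and at 24 h held under every alternative that gave a value. Requiring at least 10 counts in every library removed *INHBE*, so it gave none there. With libraries left out in turn, the difference of the responses of *GDF15*, which was not called, lay between -0.34 and 0.029 on the log2 scale, and its sign turned without DMSO 6 h replicate 3 and without DMSO 24 h replicate 2. That of *ADM2* lay between -0.31 and 0.48, and its sign turned and it was called without DMSO 24 h replicate 1, so that 0 to 1 members were called higher in that comparison. With the replicate block, no call of a member changed, and calls in the difference over all genes rose from 1924 to 2945 higher and from 2205 to 3339 lower. Calls at 6 h rose from 4000 to 4622 higher and from 4435 to 5331 lower, and at 24 h from 4387 to 5117 and from 4566 to 5294. In the main model, calls in the difference were fewer at a stricter threshold. At an adjusted p below 0.01 these were 946 higher and 1290 lower. With library size only, the median of all genes moved by 0.090 on the log2 scale at 24 h, and no called list gene changed sign, but *INHBB* and *MYLIP* at 24 h were no longer called. The members' order by level per kb moved with the longest transcript in 6 of 27 places. Depth limits *FGF21*, and *INHBE* with DMSO, to a few counts a library. The cause of these changes was not tested.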
